A study of Mus musculus with 8 samples.

Results

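The genes that load and display peptides on MHC class II were followed in CD11b+Gr-1hi and CD11b+Gr-1lo cells of sanroque mice. They are *H2-Aa*, *H2-Ab1*, *H2-Eb1*, *H2-DMa*, *H2-DMb1*, *H2-DMb2*, *H2-Oa*, *H2-Ob*, *Cd74* and *Ciita*, and they were chosen by symbol, as 10 of the 54188 genes in the count table. All 10 passed the filter on low counts, which left 17650 genes to test. MHC class II molecules carry peptides from the endocytic route to the cell surface, where CD4+ T cells read them. In mice on the C57BL/6 background the surface molecule is I-A, made of the chains encoded by *H2-Aa* and *H2-Ab1*, because the *Ea* gene is inactive and the I-E chain of *H2-Eb1* has no partner. The invariant chain (*Cd74*) occupies the groove during transport, H2-DM exchanges its remnant for peptide, H2-O restrains H2-DM chiefly in B cells, and the coactivator CIITA (*Ciita*) turns the genes on. B cells, dendritic cells and macrophages are the usual sources, whereas neutrophils and classical monocytes carry little.

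RNA-seq was performed on cells sorted from the spleen (SP) and BM of homozygous Roquin san/san (sanroque) mice on C57BL/6, labelled as female and 20 weeks old. Sanroque mice carry a germline mutation in Roquin and develop systemic autoimmunity. The 4 groups were Gr-1hi SP, Gr-1lo SP, Gr-1hi BM and Gr-1lo BM cells, with 2 libraries each, which the methods call independent biological replicates. The study calls the BM cells autologous, but the labels tie no library to a mouse and the tests treat the libraries as independent. The sex-linked reads of SP libraries 5 and 7, given below, were matched by no BM library. The labels name Gr-1hi cells as granulocytic (G-MDSC) and Gr-1lo cells as monocytic myeloid-derived suppressor cells. Every group had the same genotype, so the comparisons are between tissues and between subsets and say nothing of the mutation. The sort used CD11b and Gr-1, which some B cells, dendritic cells and macrophages can also carry in part.

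Depth was 33453580 to 68316154 counts per library. *Ly6g*, the neutrophil part of the Gr-1 epitope, was at 330.01 to 801 CPM (counts scaled to library size by TMM) in Gr-1hi and at 3.07 to 8.23 CPM in Gr-1lo libraries. *Itgam*, which encodes CD11b, was at 734 to 4904 CPM in all 8 libraries. *Csf1r*, a monocyte receptor, was at 436 to 754 CPM in Gr-1lo and 133 to 375 CPM in Gr-1hi libraries. Although the labels give female mice throughout, *Xist* reached 363 CPM in Gr-1hi SP library 5 and 209 CPM in Gr-1lo SP library 7, and at most 0.102 CPM in the others. The Y-linked *Ddx3y* was at 0 in library 5 and at 33.7 to 82.6 CPM in the other 7. Both libraries with high *Xist* were from SP and none was from BM, so sex-linked reads differed in part with tissue. The calls of the 10 genes and of the other pathway genes were therefore also made without libraries 5 and 7, whereas summed lists, ratios and correlations are given with them. A summed list of 20 B cell genes reached 543 to 796 CPM in Gr-1hi SP, 109 to 139 in Gr-1lo SP, 50.4 to 57.0 in Gr-1hi BM and 25.7 to 30.9 in Gr-1lo BM libraries, so B cell RNA moved with tissue in both subsets.

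The sequences before the start of these genes were compared first, because a shared promoter module is the classical feature of the family. In that module the RFX complex binds an X box, NF-Y binds a Y box, and CIITA docks on the assembled proteins. RefSeq windows of 250 bases before to 50 after the start (GRCm38.p6) were used for 7 of the 10 genes. *Cd74* was left out by its chromosome, 18, and no window was at hand for *H2-Ab1* and *Ciita*. *H2-Aa* lies on the minus strand and the others on the plus strand. The letters GNAAC, at the start of the X box, were searched 27 to 35 bases before GATTGG, the Y box with its inverted CCAAT. For the shares over all mouse windows both strands were searched, and for the class II genes only the strand of the gene. GATTGG alone was in 16.1% of the 32851 mouse windows of this length and the spaced pair in 0.56%. The letters and the spacing were set after the windows had been seen. The pair stood in the windows of *H2-Aa*, *H2-Eb1*, *H2-DMb1*, *H2-Oa* and *H2-Ob*, with spacings of 32, 31, 32, 32 and 29 bases from the start of one to the start of the other. It also stood in that of *H2-Eb2*, a related beta chain gene in the same region, at 31 bases. On the strand of the gene, only GATTGG was found in *H2-DMb2*. One of the windows of *H2-DMa* held GATTGG there, 199 bases before the start, and neither held the pair. The other strand of these windows was not searched. Stretches of 60 bases are shown 5′ to 3′ to let the 2 boxes be compared between genes, with capitals for GNAAC and GATTGG.
H2-Aa, chr17:34287858-34287917: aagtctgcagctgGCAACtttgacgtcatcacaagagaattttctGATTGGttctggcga
H2-Eb1, chr17:34305762-34305821: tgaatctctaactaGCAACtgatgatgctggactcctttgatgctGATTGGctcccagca
H2-DMb1, chr17:34153084-34153143: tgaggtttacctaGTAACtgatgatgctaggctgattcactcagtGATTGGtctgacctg
H2-DMb2, chr17:34145113-34145172: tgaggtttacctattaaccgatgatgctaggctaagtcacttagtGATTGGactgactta
H2-Oa, chr17:34092290-34092349: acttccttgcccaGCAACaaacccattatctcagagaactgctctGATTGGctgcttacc
H2-Ob, chr17:34238802-34238861: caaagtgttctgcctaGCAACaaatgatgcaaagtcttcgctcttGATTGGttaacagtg
H2-Eb2, chr17:34325529-34325588: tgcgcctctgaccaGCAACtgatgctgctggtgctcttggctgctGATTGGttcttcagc

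The tissues were compared within each subset, the subsets within each tissue, and the interaction of both was taken, each with edgeR's quasi-likelihood test and p-values adjusted by Benjamini-Hochberg over all genes tested. A gene was called between tissues, or in the interaction, where its FC was 2 or more and its adjusted p 0.05 or less. The study's stricter limits, an FC over 8 with an adjusted p under 0.01, were kept between subsets.
Between SP and BM, Gr-1hi cells had higher levels of all 10 genes, by 2.84-fold (*H2-DMb1*) to 30.6-fold (*H2-Ob*), where 14.0% of the genes tested were called higher. Their median log2 FC was 2.69, against 0.03 over all genes tested. In Gr-1lo cells, *H2-Oa* and *H2-Ob* were called higher in SP, 2 of the 10 genes, where 3.84% of all genes were. All 10 log2 FCs were above 0 in Gr-1lo cells, with a median of 1.57 against -0.01 over all genes, and 8 had an unadjusted p under 0.05, as did 20.1% of all genes. The 2 SP libraries lay above the 2 BM libraries for 10 of 10 genes in Gr-1hi cells and 8 of 10 in Gr-1lo cells, where 35.9% and 27.1% of all genes did. In bulk RNA, fewer cells of a type and less RNA per cell cannot be told apart.

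The count in Gr-1hi cells depended on single libraries. Without library 5 it fell to 4, namely *H2-DMb2*, *H2-Oa*, *H2-Ob* and *Ciita*, and without libraries 5 and 7 to 3, with *Ciita* lost. It was 7 without library 9 and 5 with no filter on low counts. The number of calls over all genes also fell without library 5, without libraries 5 and 7 and without library 9. With no filter 3071 of 34018 genes were called in either direction, against 2727 of 17650 in the main fit. The log2 FCs of all 10 class II genes stayed above 0 in each of these settings.

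Between subsets, *H2-DMa*, *H2-DMb1* and *Ciita* were called lower in Gr-1hi than in Gr-1lo cells of the BM, 3 of 10 genes where 10.1% of all genes were called lower. Without libraries 5 and 7 only *H2-DMa* kept its call, although neither is a BM library and both enter the shared estimate of the spread. In SP, 0 of the 10 were called between subsets by edgeR and by DESeq2, where edgeR called 7.37% of all genes in either direction, and 7 of the 10 had an unadjusted p under 0.05, as did 73.7% of all genes. With the limits of the tissue comparison, an alternative added after the data had been seen, 8 genes were lower in Gr-1hi cells of the BM, where 33.1% of all genes were lower. With the same limits in SP, *H2-DMa*, *H2-DMb1*, *Cd74* and *Ciita* were lower in Gr-1hi cells, 4 of 10 where 27.4% of all genes were lower. *H2-Oa* and *H2-Ob* were higher there, where 22.3% of all genes were.

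**Figure D1:**
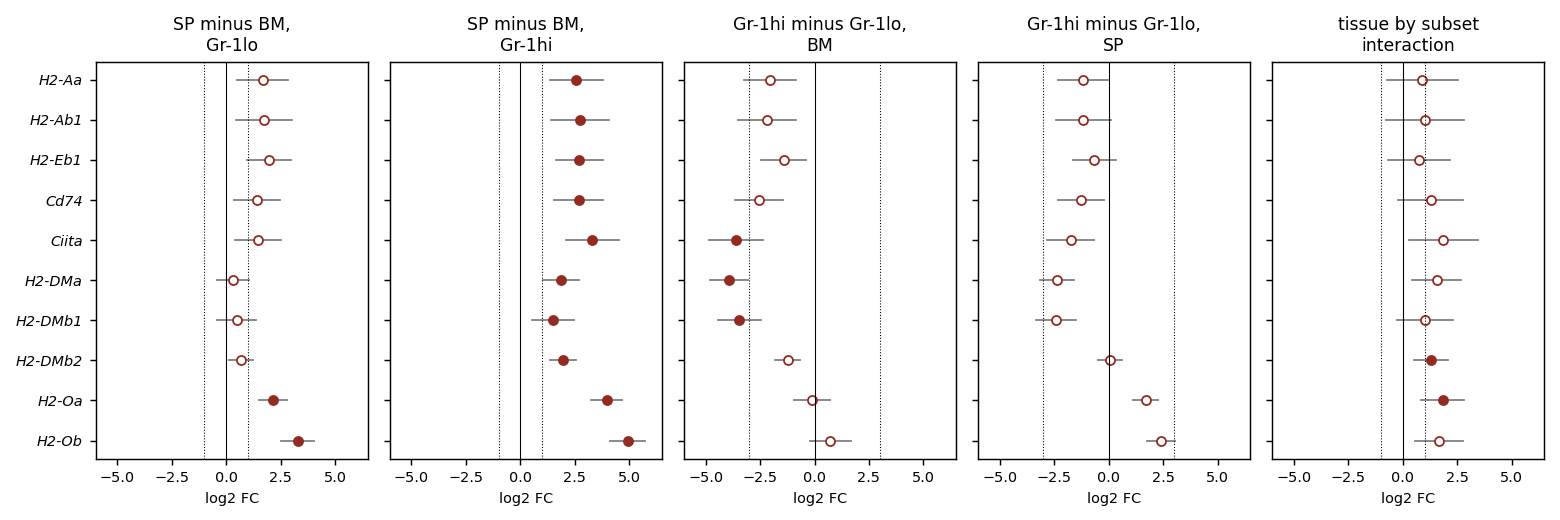
Log2 FC of each gene (points) with its 95% interval (lines) in the 4 comparisons and in the interaction, from edgeR. Filled points passed both thresholds and dotted lines mark the FC threshold. All 10 points are filled for SP minus BM in Gr-1hi cells, and only those of *H2-Oa* and *H2-Ob* in Gr-1lo cells.

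The I-A chains and the I-E beta chain, together the classical chains, had their highest mean levels in Gr-1lo SP cells. *H2-Aa* (I-A alpha chain; GRCm38 chromosome 17, 34282744 to 34287823, minus strand) was at 400.2 and 699 CPM in Gr-1lo SP, 107 and 236 in Gr-1lo BM, 283 and 207 in Gr-1hi SP, and 30.8 and 51.5 in Gr-1hi BM libraries. *H2-Ab1* (I-A beta chain; 34257689 to 34269419) was at 376 and 609 CPM in Gr-1lo SP, 87.7 and 211 in Gr-1lo BM, 260.2 and 181 in Gr-1hi SP, and 23.4 and 42.6 in Gr-1hi BM libraries. *H2-Eb1* (I-E beta chain; 34305867 to 34316674) was at 242 and 405 CPM in Gr-1lo SP, 54.0 and 112 in Gr-1lo BM, 239.7 and 168 in Gr-1hi SP, and 26.2 and 36.2 in Gr-1hi BM libraries. For each of the 3 genes both SP libraries lay above both BM libraries of the same subset. The 2 libraries of a group lay farthest apart, as a ratio, in Gr-1lo BM cells for all 3 genes.

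In Gr-1hi cells the chains were higher in SP, with log2 FCs of 2.57 ± 0.50 (SE, n = 2 libraries per group; adjusted p = 0.0111) for *H2-Aa*, 2.74 ± 0.55 (adjusted p = 0.0132) for *H2-Ab1* and 2.71 ± 0.44 (adjusted p = 0.00568) for *H2-Eb1*. In Gr-1lo cells the values were 1.68 ± 0.48, 1.72 ± 0.52 and 1.96 ± 0.42, and none was called (adjusted p = 0.124, 0.147 and 0.0536). The FC of *H2-Eb1* in Gr-1lo cells passed with upper-quartile scaling (adjusted p = 0.0390), with DESeq2 and without library 12, and that of *H2-Aa* with DESeq2 (adjusted p = 0.0429). Within a library, *H2-Aa* stayed at 1.06 to 1.32 times *H2-Ab1* in CPM in all 8 libraries. *H2-Eb1* ran at 0.851 to 1.12 times *H2-Ab1* in Gr-1hi and at 0.532 to 0.665 times in Gr-1lo libraries, a separation that followed the subset and not the tissue. *H2-Eb1* and the antisense gene *Gm20513* overlap at the start of the locus. The libraries were made with a stranded kit and the deposited counts are labelled stranded, although the methods give no strand setting for the counting.

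**Figure D2:**
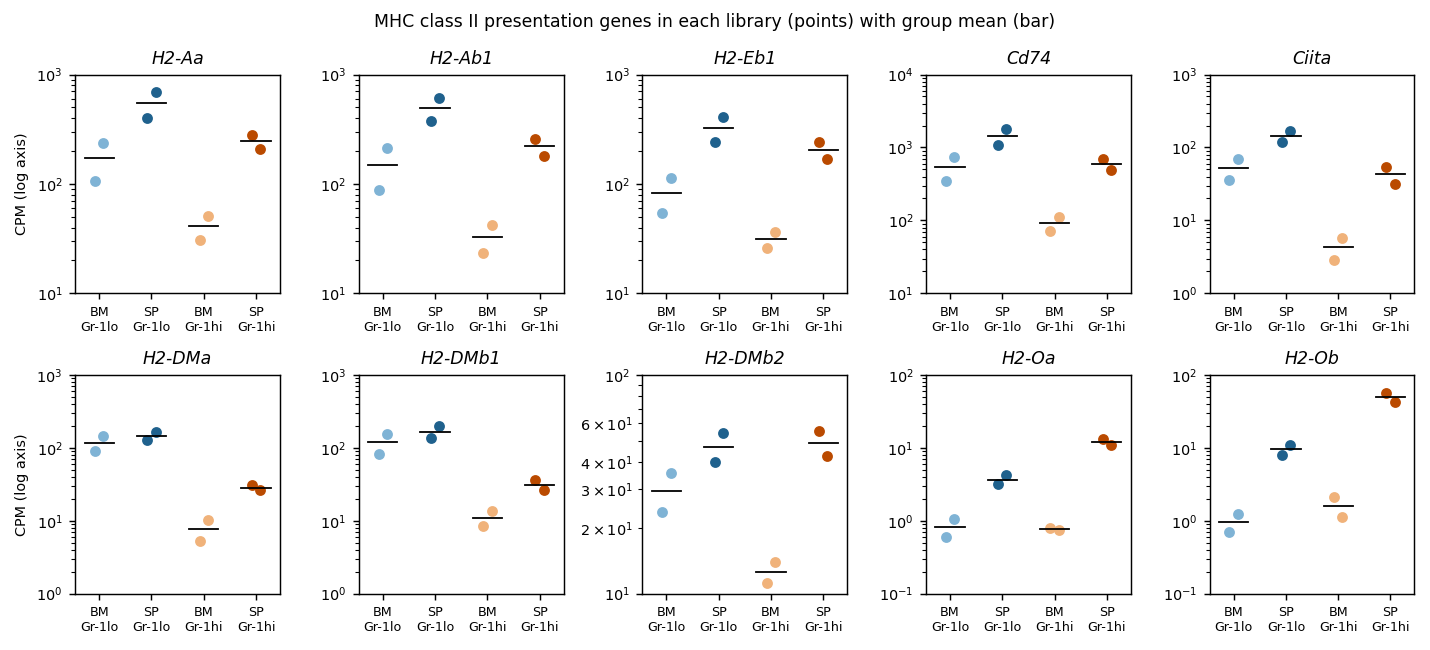
CPM of each gene (log axis, different range in each panel) in the 8 libraries (points), with the mean of the 2 libraries of a group (bar). The upper row and the H2-DM panels are lowest in Gr-1hi BM cells, and *H2-Oa* and *H2-Ob* are highest in Gr-1hi SP cells.

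*Cd74* (invariant chain; chromosome 18, 60803848 to 60812652) was at 1070.4 and 1768 CPM in Gr-1lo SP, 345 and 731 in Gr-1lo BM, 687 and 491 in Gr-1hi SP, and 71.1 and 113 in Gr-1hi BM libraries. The group means fell in the same order as for *H2-Aa*, with the Gr-1hi SP and Gr-1lo BM libraries overlapping. SP exceeded BM by a log2 FC of 2.68 ± 0.46 in Gr-1hi cells (adjusted p = 0.00688) and by 1.40 ± 0.44 in Gr-1lo cells (adjusted p = 0.150, not called). Gr-1hi cells lay below Gr-1lo cells by 5.85-fold in BM (adjusted p = 0.00215) and 2.41-fold in SP (adjusted p = 0.0373), both short of the 8-fold threshold. *Cd74* was 2.64 to 3.93 times *H2-Ab1* in CPM, and the 2 highest ratios were those of the Gr-1lo BM libraries.

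*Ciita* (class II transactivator; chromosome 16, 10480059 to 10528418) was at 118 and 168 CPM in Gr-1lo SP, 35.4 and 69.1 in Gr-1lo BM, 53.5 and 31.9 in Gr-1hi SP, and 2.88 and 5.78 in Gr-1hi BM libraries. Gr-1hi BM cells stood apart at the bottom, and the Gr-1lo BM and Gr-1hi SP libraries overlapped. *Ciita* was 9.92-fold higher in SP than in BM among Gr-1hi cells (log2 FC 3.31 ± 0.51, adjusted p = 0.00475) and 12.1-fold lower in Gr-1hi than in Gr-1lo cells of the BM (log2 FC -3.60 ± 0.51, adjusted p = 0.000653). Among Gr-1lo cells the difference between tissues was 1.45 ± 0.44 on the log2 scale (adjusted p = 0.138, not called). Over the 8 libraries, *Cd74* and *Ciita* had a Pearson correlation of 0.992 in log2(CPM + 0.5), and the 10 pairs among the 3 classical chains, *Cd74* and *Ciita* ranged from 0.903 to 0.999. These points share tissue, subset and depth, so the values only describe how alike the profiles were.

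The H2-DM genes split into 2 patterns. *H2-DMa* (alpha chain; 34119541 to 34139101) was at 126 and 165 CPM in Gr-1lo SP, 89.75 and 145 in Gr-1lo BM, 30.4 and 26.0 in Gr-1hi SP, and 5.35 and 10.2 in Gr-1hi BM libraries. *H2-DMb1* (beta chain; 34153072 to 34160230) was at 136 and 197 CPM in Gr-1lo SP, 83.3 and 156 in Gr-1lo BM, 36.0 and 26.3 in Gr-1hi SP, and 8.41 and 13.6 in Gr-1hi BM libraries. For both genes the Gr-1lo libraries of SP and BM overlapped, and every Gr-1lo library lay above every Gr-1hi library. *H2-DMb2* (a second beta chain gene; 34143307 to 34151555) was at 39.8 and 54.0 CPM in Gr-1lo SP, 23.6 and 35.5 in Gr-1lo BM, 55.7 and 42.4 in Gr-1hi SP, and 11.2 and 14.0 in Gr-1hi BM libraries, so that in SP the subsets overlapped.

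*H2-DMa* was 15.1-fold and *H2-DMb1* 10.9-fold lower in Gr-1hi than in Gr-1lo cells of the BM (log2 FC -3.92 ± 0.37 and -3.45 ± 0.42, adjusted p = 4.85e-05 and 0.000269). In SP the differences were 5.16-fold and 5.34-fold (adjusted p = 0.000552 and 0.00136), which did not reach 8-fold. *H2-DMb2* differed between subsets by 0.06 ± 0.23 on the log2 scale in SP, with a 95% interval from -0.48 to 0.60, and by -1.23 ± 0.25 in BM (adjusted p = 0.00204, 2.35-fold, not called). The sign of the SP value turned in 5 alternatives, among them no filter and leaving out library 5. Between tissues, Gr-1lo cells gave 95% intervals from -0.44 to 1.06 for *H2-DMa* and from -0.41 to 1.36 for *H2-DMb1*, and a log2 FC of 0.67 ± 0.23 for *H2-DMb2* (adjusted p = 0.166, not called). Gr-1hi SP cells exceeded their BM counterparts by 3.64-fold (*H2-DMa*, adjusted p = 0.00797), 2.84-fold (*H2-DMb1*, adjusted p = 0.0289) and 3.89-fold (*H2-DMb2*, adjusted p = 0.00121). The call of *H2-DMb1* was lost without each of libraries 5, 6 and 9 and with no filter.

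The balance between the 2 beta chain genes followed the subset. The ratio of *H2-DMb2* to *H2-DMb1* in CPM was 1.54 and 1.61 in Gr-1hi SP, 1.333 and 1.03 in Gr-1hi BM, 0.293 and 0.274 in Gr-1lo SP, and 0.283 and 0.227 in Gr-1lo BM libraries. All 4 Gr-1hi libraries thus lay above all 4 Gr-1lo libraries, in both tissues. *H2-DMb2* made up 50.7% to 61.7% of the counts of the pair in Gr-1hi and 18.5% to 22.7% in Gr-1lo libraries. The annotated transcripts share 176 stretches of 101 bases, which are 11.2% of those of *H2-DMb1* and 10.1% of those of *H2-DMb2*, so a part of the reads could not be told apart. *H2-DMa* overlaps *Brd2* on the other strand at its start.

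**Figure D3:**
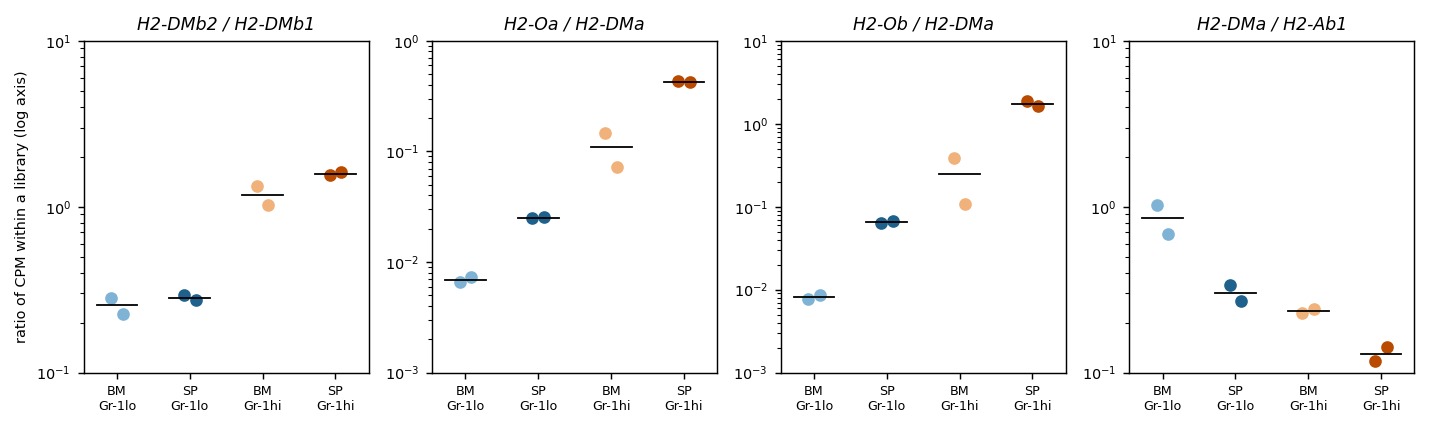
Ratios of CPM within each library (points, log axis; bar, mean of the 2 libraries of a group) for *H2-DMb2* over *H2-DMb1*, *H2-Oa* and *H2-Ob* over *H2-DMa*, and *H2-DMa* over *H2-Ab1*. The first ratio is 1.03 to 1.61 in Gr-1hi and 0.227 to 0.293 in Gr-1lo cells of either tissue.

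Between the subsets of SP, the H2-O genes ran opposite to *H2-DMa* and *H2-DMb1*. *H2-Oa* (alpha chain; 34092340 to 34095234) was at 13.1 and 10.9 CPM in Gr-1hi SP, 3.15 and 4.17 in Gr-1lo SP, 0.785 and 0.743 in Gr-1hi BM, and 0.594 and 1.06 in Gr-1lo BM libraries. *H2-Ob* (beta chain; 34238903 to 34254414) was at 56.4 and 42.8 CPM in Gr-1hi SP, 8.00 and 11.0 in Gr-1lo SP, 2.09 and 1.12 in Gr-1hi BM, and 0.697 and 1.25 in Gr-1lo BM libraries. Both genes were highest in Gr-1hi SP cells, next in Gr-1lo SP cells and lowest in BM, where the subsets overlapped.

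SP exceeded BM for *H2-Ob* by 30.6-fold in Gr-1hi cells (log2 FC 4.93 ± 0.35, adjusted p = 0.000132) and by 9.71-fold in Gr-1lo cells (3.28 ± 0.33, adjusted p = 0.00119). For *H2-Oa* it was 15.7-fold (3.97 ± 0.31, adjusted p = 0.000159) and 4.42-fold (2.14 ± 0.28, adjusted p = 0.00332). Those 4 calls held in every alternative run. Within SP, Gr-1hi cells exceeded Gr-1lo cells by 3.27-fold for *H2-Oa* and 5.21-fold for *H2-Ob* (adjusted p = 0.000303 and 9.57e-05), short of 8-fold. In BM the log2 FC between subsets was -0.12 ± 0.35 for *H2-Oa*, with a sign that turned in 5 alternatives including RLE scaling, and 0.73 ± 0.40 for *H2-Ob* (adjusted p = 0.135). The ratio of *H2-Ob* to *H2-DMa* was 1.85 and 1.64 in Gr-1hi SP, 0.392 and 0.109 in Gr-1hi BM, 0.0633 and 0.0665 in Gr-1lo SP, and 0.00776 and 0.00857 in Gr-1lo BM libraries.

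The interaction of tissue and subset asked whether the difference between Gr-1hi and Gr-1lo cells was the same in SP and BM. It was above 0 for all 10 genes, with a median of 1.29 against 0.03 over all genes, and *H2-Oa* (1.83 ± 0.43, adjusted p = 0.0246) and *H2-DMb2* (1.29 ± 0.34, adjusted p = 0.0391) were called, 2 of 10 where 7.74% of all genes were called above 0. *H2-DMa*, *H2-Ob* and *Ciita* had an unadjusted p under 0.05 without a call, in a comparison where 32.3% of all genes had one, and for the classical chains the intervals reached from -0.73 to 2.51 (*H2-Aa*), -0.76 to 2.81 (*H2-Ab1*) and -0.66 to 2.17 (*H2-Eb1*). Neither call held without library 5, 7, 9, 10 or 12, and that of *H2-DMb2* was also lost without library 8 and with limma on quantile-normalized TPM.

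*H2-Ob* ran in step with B cell genes over the 8 libraries, and *H2-DMa* did not. The list of 20 B cell genes had *Cd22* and *Cd79a* among its highest in SP, and no gene of it was at 0 in a whole group. It was called higher in SP for 20 of 20 genes in Gr-1hi cells, where 14.0% of all genes were. In Gr-1lo cells it was called higher for 17 of 20, where 3.84% of all genes were. *H2-Ob* was 0.0221 to 0.0788 times the summed CPM of that list in the 8 libraries, and 0.0709 to 0.0788 times in the 4 SP libraries of both subsets. *H2-Oa* was 0.0138 to 0.0343 times the list, lowest in Gr-1hi BM libraries. *H2-DMa* ranged from 0.0382 times the list in Gr-1hi SP library 5 to 4.71 times in Gr-1lo BM library 12. *H2-Ab1* was 0.327 and 0.334 times the list in Gr-1hi SP, 0.411 and 0.844 in Gr-1hi BM, 3.45 and 4.37 in Gr-1lo SP, and 3.42 and 6.84 in Gr-1lo BM libraries. *Ciita* was 0.0505 to 0.115 times the list in Gr-1hi and 1.08 to 2.24 times in Gr-1lo libraries. The part of B cell RNA in these results was not tested.

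**Figure D4:**
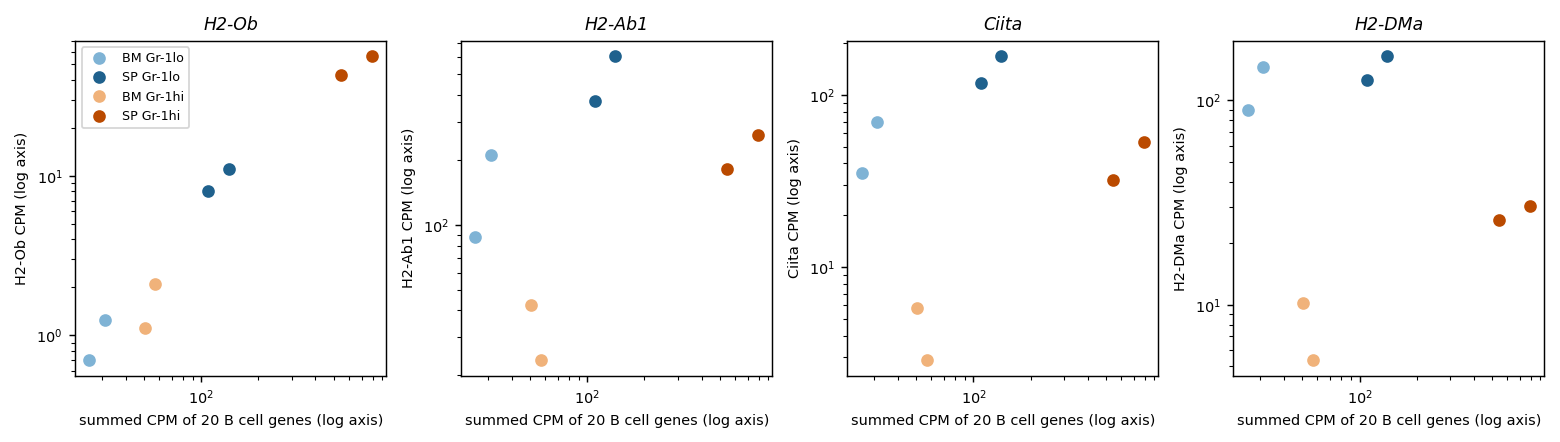
CPM of *H2-Ob*, *H2-Ab1*, *Ciita* and *H2-DMa* in each library against the summed CPM of 20 B cell genes in the same library (both axes log, colours for the 4 groups). *H2-Ob* rises with the B cell genes from BM to Gr-1hi SP libraries. In the other panels the Gr-1lo SP libraries lie above the Gr-1hi SP libraries, at a lower B cell level.

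Other cell type lists moved as well. T cell genes (12, led by *Lck*, *Trac* and *Cd4*) summed to 80.2 to 132 CPM in Gr-1hi SP, 27.8 to 43.5 in Gr-1lo SP, 7.55 to 11.1 in Gr-1hi BM and 2.58 to 2.63 in Gr-1lo BM libraries. Dendritic cell genes (11, led by *Itgax*, *Dnase1l3* and *Flt3*) summed to 116 to 121, 31.3 to 48.2, 27.99 to 41.3 and 7.52 to 10.6 CPM in the same order, with *Ccr7* at 0 in Gr-1lo BM cells. Splenic macrophage genes (15, led by *Slc40a1*, *Hmox1* and *Adgre1*) summed to 993 to 1177, 355 to 396, 627 to 699.6 and 247 to 295 CPM, with *Timd4* and *Marco* at 0 in Gr-1lo BM cells. All 3 sums were highest in Gr-1hi SP cells. There *Itgax* averaged 82.9 of the 118 CPM of the dendritic cell list, and *Slc40a1* 751 of the 1085 CPM of the macrophage list. Between the subsets of SP, 12 of 12 T cell, 10 of 11 dendritic cell and 12 of 15 macrophage genes had a higher level in Gr-1hi cells. *Batf3*, *Adgre1* and *Siglec1* were among those that were higher in Gr-1lo SP cells. Plasma cell genes (7, led by *Xbp1*, *Jchain* and *Irf4*) summed to 286 to 389 CPM in Gr-1hi SP, 319 to 329.9 in Gr-1lo SP, 101 to 102 in Gr-1hi BM and 230.4 to 256 in Gr-1lo BM libraries, with *Tnfrsf17* at 0 in Gr-1hi BM cells. Non-classical monocyte genes (6, led by *Nr4a1*, *Spn* and *Treml4*) summed to 339 to 574, 487 to 514, 275 to 294 and 318 to 345 CPM. In the plasma cell list *Xbp1* averaged 228 of 243 CPM in Gr-1lo BM and 261 of 324 CPM in Gr-1lo SP cells. *Jchain* was at 4.30 and 35.1 CPM and *Mzb1* at 0.310 and 4.56 CPM in these 2 groups. Of 6 plasma cell genes tested, 6 were called higher in SP in Gr-1hi cells, where 14.0% of all genes were. In Gr-1lo cells 4 were, where 3.84% of all genes were. The part of these cell types in the results was not tested.

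Other genes of the pathway were followed as lists. Of 37 genes in 6 lists (regulators, interferon-γ input, antigen processing, turnover, the rest of the class II region and costimulation), 36 could be tested, and in Gr-1hi cells 7 were called, all higher in SP, where 14.0% of all genes were called higher. They were *Irf8* (a myeloid transcription factor), *Ifi30* (a lysosomal thiol reductase), *Ctss* (the cathepsin that trims the invariant chain), *Lgmn* (an asparagine endopeptidase), *Cd40* (a costimulatory receptor), *Cd83* (which stabilises surface class II) and *H2-Eb2*. In Gr-1lo cells *Cd40*, *Cd83* and *H2-Eb2* were called, all higher in SP, where 3.84% of all genes were. Without libraries 5 and 7, an alternative added after the data had been seen, *Irf8*, *Ctss* and *Ifi30* lost their calls in Gr-1hi cells (adjusted p = 0.0657, 0.163 and 0.0550), and *Ubd*, a gene of the turnover list, gained one in both subsets. The median log2 FC of the 36 genes was 0.41 in Gr-1hi and 0.14 in Gr-1lo cells.

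Among regulators, *Rfx5*, a subunit of the X box complex, was at 22.4 and 19.0 CPM in Gr-1hi SP, 10.8 and 13.1 in Gr-1hi BM, 21.5 and 23.8 in Gr-1lo SP, and 18.9 and 21.2 in Gr-1lo BM libraries. Its SP excess in Gr-1hi cells was 1.74-fold (adjusted p = 0.00439), under the FC threshold. *Irf8* was at 51.0 and 46.6 CPM in Gr-1hi SP, 5.38 and 10.5 in Gr-1hi BM, 192 and 237 in Gr-1lo SP, and 228 and 337 in Gr-1lo BM libraries, and its interaction was called (log2 3.02 ± 0.43, adjusted p = 0.00629). *Irf1*, which acts between interferon-γ and *Ciita*, was at a 3.68-fold higher level in Gr-1hi than in Gr-1lo cells of SP (adjusted p = 0.000998), short of 8-fold. Its link to the level of *Ciita* in these cells was not tested. *Irf1* was at 1271 and 1058 CPM in Gr-1hi SP, 274 and 359 in Gr-1lo SP, 477 and 781 in Gr-1hi BM, and 203 and 329.8 in Gr-1lo BM libraries. It was not called between tissues.

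In the processing list, *Ctss* was at 913 and 976 CPM in Gr-1lo SP, 791 and 878 in Gr-1lo BM, 462 and 327 in Gr-1hi SP, and 80.8 and 162 in Gr-1hi BM libraries. *Ifi30* was at 489 and 505 CPM in Gr-1lo SP, 502 and 549 in Gr-1lo BM, 37.3 and 26.5 in Gr-1hi SP, and 7.51 and 13.3 in Gr-1hi BM libraries. Both resembled *H2-DMa*, with Gr-1lo libraries on top and little difference between their tissues. *Ctss* was 3.24-fold and *Ifi30* 3.08-fold higher in SP than in BM among Gr-1hi cells (adjusted p = 0.00719 and 0.00295). *Ifi30* was lower in Gr-1hi than in Gr-1lo cells of both tissues, by -5.66 ± 0.29 in BM and -3.96 ± 0.26 in SP on the log2 scale (adjusted p = 8.04e-07 and 5.34e-06). *Lgmn* was called higher in SP of Gr-1hi cells by 4.09-fold (adjusted p = 0.000208) and differed by 1.74-fold in Gr-1lo cells (adjusted p = 0.0203, not called).

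*Cd40* was at 6.54 and 4.40 CPM in Gr-1hi SP, 0.449 and 0.454 in Gr-1hi BM, 17.8 and 25.2 in Gr-1lo SP, and 9.40 and 11.7 in Gr-1lo BM libraries. *Cd83* was at 14.5 and 8.61 CPM in Gr-1hi SP, 2.81 and 3.80 in Gr-1lo SP, 0.523 and 0.330 in Gr-1hi BM, and 0.266 and 0.113 in Gr-1lo BM libraries. Their SP excess was 12.1-fold and 26.7-fold in Gr-1hi cells (adjusted p = 0.000328 and 0.000256) and 2.04-fold and 17.5-fold in Gr-1lo cells (adjusted p = 0.0325 and 0.00122). *Cd83* thus fell in the order of *H2-Ob* and *Cd40* in that of *Ciita*. Between subsets of the BM, *H2-Eb2* and *Btnl2* (a butyrophilin-like gene of the class II region) were called higher and *Ifi30*, *Irf8* and *Cd40* lower in Gr-1hi cells, where 6.56% of all genes were called higher and 10.1% lower. For *H2-Eb2* that call rests on 1 and 3 counts in the Gr-1lo BM libraries. In SP, *Btnl2* was called higher and *Ifi30* lower, where 4.44% and 2.93% of all genes were. In the interaction *Lgmn*, *Ifi30*, *Cd40* and *Irf8* were called above 0, 4 of 36 where 7.74% of all genes were, and of these calls only that of *Cd40* held without libraries 5 and 7. *Btnl2* was at 10.6 and 8.39 CPM in Gr-1hi SP, 8.37 and 6.61 in Gr-1hi BM, 0.549 and 0.637 in Gr-1lo SP, and 0.307 and 0.623 in Gr-1lo BM libraries.

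*H2-Eb2* followed *H2-O* rather than its neighbour *H2-Eb1* in falling from Gr-1hi SP to Gr-1lo SP to BM cells. It was at 11.3 and 9.15 CPM in Gr-1hi SP, 1.69 and 2.62 in Gr-1lo SP, 0.411 and 0.372 in Gr-1hi BM, and 0.0205 and 0.0567 CPM, or 1 and 3 counts, in Gr-1lo BM libraries. It was 25.9-fold higher in SP than in BM among Gr-1hi cells (adjusted p = 0.000121). Between subsets of the BM, *H2-Eb2* was called higher in Gr-1hi cells, unlike *H2-Oa* and *H2-Ob*. That call and the FC between tissues in Gr-1lo cells rest on the 4 counts of the Gr-1lo BM libraries, and neither is given as a fold. The *H2-Ea-ps* row, the inactive E alpha locus, had at most 1 count in a library, and *H2-Ea* was not analysed here.

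On chromosome 17, *H2-Oa*, the H2-DM genes and then *H2-Ob*, *H2-Ab1*, *H2-Aa*, *H2-Eb1* and *H2-Eb2* follow each other. In Gr-1hi cells the log2 FCs of SP minus BM were 1.86, 1.96 and 1.504 for the neighbours *H2-DMa*, *H2-DMb2* and *H2-DMb1*, and 2.74, 2.57 and 2.71 for *H2-Ab1*, *H2-Aa* and *H2-Eb1*. *H2-Ob*, which lies next to *H2-Ab1* among the class II genes, was at 4.93.

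**Figure D5:**
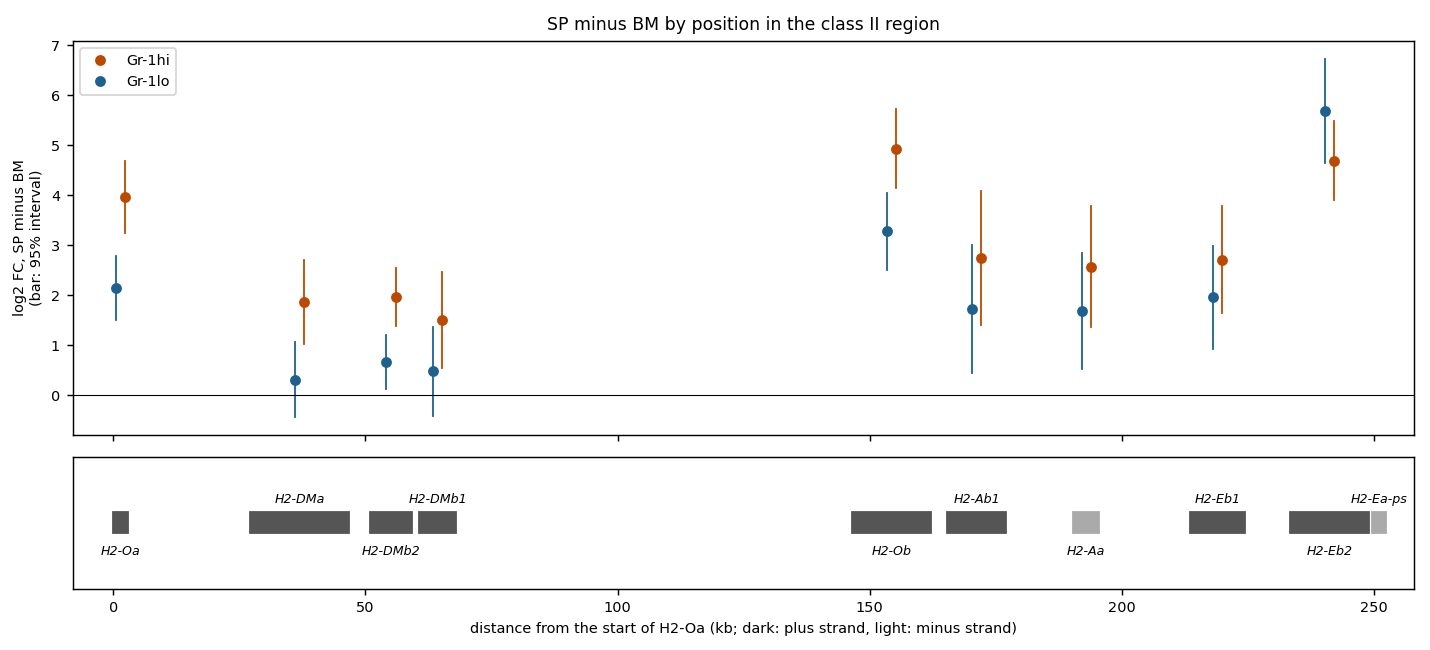
Log2 FC of SP minus BM (points, with 95% intervals) for genes of the class II region at their distance from the start of *H2-Oa* (kb), in Gr-1hi and Gr-1lo cells, above a map of the genes. *H2-Oa*, *H2-Ob* and *H2-Eb2*, which are not neighbours of each other, lie highest, and the Gr-1lo point of *H2-Eb2* rests on 4 counts in BM.

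Per length, the level of the invariant chain led in every group. In TPM, *Cd74* averaged 2482 in Gr-1lo SP, 983 in Gr-1lo BM, 709 in Gr-1hi SP and 91.2 in Gr-1hi BM cells. In Gr-1lo SP cells *H2-Ab1* (441 to 685 TPM), *H2-Eb1* (374 to 602) and *H2-Aa* (317 to 532) came next and overlapped, ahead of *H2-DMb1* (244 to 339), *H2-DMa* (110.4 to 138), *H2-DMb2* (68.7 to 89.3), *Ciita* (37.2 to 50.9), *H2-Oa* (6.73 to 8.57) and *H2-Ob* (4.48 to 5.89). In Gr-1lo BM cells *H2-DMb1* (154 to 283 TPM) overlapped the classical chains, and *H2-Oa* (1.31 to 2.29) and *H2-Ob* (0.402 to 0.707) were last. In Gr-1hi SP cells *H2-Ob* (15.3 to 21.9 TPM), *H2-Oa* (15.0 to 19.5) and *H2-DMa* (14.6 to 18.5) overlapped and *Ciita* (6.45 to 11.7) was last. In Gr-1hi BM cells, *H2-Eb1* (23.1 to 30.4 TPM), *H2-Ab1* (15.7 to 27.04) and *H2-Aa* (13.9 to 22.1) were followed by *H2-DMb2* (11.0 to 13.1), *H2-DMb1* (8.59 to 13.2) and *H2-DMa* (2.66 to 4.84). There *H2-Oa* (0.862 to 0.958), *Ciita* (0.518 to 0.989) and *H2-Ob* (0.338 to 0.668) were last and overlapped in part. The 10 genes took 0.324% and 0.515% of all counts in Gr-1lo SP, 0.108% and 0.213% in Gr-1lo BM, 0.148% and 0.101% in Gr-1hi SP, and 0.0133% and 0.0209% in Gr-1hi BM libraries.

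The genes most alike in profile differed between the class II genes. Among 8597 genes with a mean of at least 10 CPM, those with the highest Pearson correlation of log2(CPM + 0.5) with *H2-Ob* over the 8 libraries were *Cr2* (0.995), *Ighd* (0.994), *Scd1* (0.994), *Gimap6* (0.993) and *Ms4a1* (0.993). *Cr2* encodes complement receptor CD21, *Ighd* the IgD heavy chain and *Ms4a1* CD20, all known from mature B cells. For *H2-Ab1* they were *Gm20489* (0.989), *Il2rg* (0.984), *Smpdl3b* (0.969), *Lacc1* (0.968) and *Il21r* (0.962), where *Gm20489* overlaps *Il2rg* on the same strand, so the top 2 are not separate. For *Ciita* they were *Lacc1* (0.985), *Nlrp1b* (0.983), *Filip1l* (0.982), *Icam1* (0.981) and *Dpp4* (0.977). Among the class II genes, *H2-Oa* and *H2-Ob* correlated at 0.992, and *H2-DMa* and *H2-DMb1* at 0.995, while the 4 pairs between H2-O and these H2-DM genes ranged from 0.0132 to 0.113. These 8 points come from 4 groups of 2, and the correlations are descriptions.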

How the data were processed

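According to the submitters' processing notes and the methods, reads were checked with FastQC, aligned to GRCm38 with STAR and counted per gene with featureCounts. The authors deposited raw counts per gene, with no normalization. The quantile-normalized TPM that their methods name were rebuilt here only as an alternative. Counts were tested with edgeR 4.0.16 in R 4.3.3 (filterByExpr, TMM, robust quasi-likelihood, 1 fit of 8 libraries, 4 residual degrees of freedom), with Benjamini-Hochberg adjustment over 17650 genes. CPM are TMM-scaled. SEs come from the 1 fit of 8 libraries, in which the groups share an estimate of the spread, with 2 libraries per group. TPM and positions used GENCODE M21 on the same build, with a length for 53947 of 54188 genes. The tests were tried on simulated data. Depth was 33453580 to 68316154 counts, so that 3 counts, the limit for a count of 0, are 0.0348 to 0.124 CPM, which covers counting error only. Replicates differed by more than sampling noise, with chi-square per degree of freedom from 13.1 to 44.7. Groups came from the labels, which do not say which libraries share a mouse. Genes, lists and tests were chosen with earlier results of these data known. Named genes were all 10 class II genes, called genes of the pathway lists with 8 fixed ones, the 3 highest genes of each cell type list, and the 5 genes most alike to *H2-Ab1*, *H2-Ob* and *Ciita*. Some of these named genes are not reported here. Alternatives were RLE and upper-quartile scaling, DESeq2 1.42.0, no filter, a fit of 4 libraries, leaving out libraries, limma 3.58.1 on log2(quantile-normalized TPM + 1), and other thresholds. Some alternatives were added after the data had been seen.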

Additional observations from a re-analysis of the deposited data

Results flagged for a closer look

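For *H2-Oa* and *H2-DMb2* the difference between Gr-1hi and Gr-1lo cells differed between SP and BM by the interaction test of edgeR. The interaction was 1.83 ± 0.43 on the log2 scale for *H2-Oa*, from a difference of 1.71 in SP and -0.12 in BM, and 1.29 ± 0.34 for *H2-DMb2*, from 0.06 in SP and -1.23 in BM. In the 4 BM libraries *H2-Oa* was at 0.594 to 1.06 CPM and *H2-DMb2* at 11.2 to 35.5 CPM. Neither call held without library 5, 7, 9, 10 or 12. The summed B cell genes were at 50.4 to 57.0 CPM in Gr-1hi and 25.7 to 30.9 CPM in Gr-1lo cells of the BM, where *H2-Oa* overlapped between subsets. In the interaction 2 of the 20 B cell genes were called above 0, where 7.74% of all genes were, with a median of 0.32 over the list. *H2-DMb2* shares part of its sequence with *H2-DMb1*, and the part of that in the interaction was not tested.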

How the results depend on the processing

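No paired analysis was possible because the labels give the groups no shared replicate numbers and tie no library to a mouse, although the study calls the BM cells autologous. The sex-linked reads of SP libraries 5 and 7 also had no match among the BM libraries. Of 740 recomputed values of single genes, 676 kept their direction and side of the thresholds, 41 lost a call, 13 gained one and 10 changed sign. The 10 were *H2-Oa* between subsets in BM (0.032 with RLE scaling, 0.033 with DESeq2, 0.30 with limma, and -0.50 to 0.34 without 1 library, with 0.0021 without library 10 and 0.34 without library 12) and *H2-DMb2* between subsets in SP (-0.073 with no filter, -0.17 with limma, -0.17 to 0.28 without 1 library, below 0 without library 5 or 7, and -0.37 without both). The number of genes called higher in SP was 4 with DESeq2 in Gr-1lo cells, and 5 with no filter and 3 without libraries 5 and 7 in Gr-1hi cells. Leaving out 1 library gave 2 to 3 in Gr-1lo and 4 to 10 in Gr-1hi cells. Between subsets, 1 was called in BM without libraries 5 and 7 and 2 to 4 without 1 library, and at the thresholds of SP against BM 8 were called in BM and 6 in SP. In SP 0 were called in each of the settings that left out a library. The interaction gave 4 with DESeq2, 0 without libraries 5 and 7 and 0 to 3 without 1 library. Of the other pathway genes, 4 were called in the interaction and 1 without libraries 5 and 7. A group left with 1 library was assumed to vary like the others. With fewer libraries the tests had fewer residual degrees of freedom, and the cause of the other changes was not tested. The median of all genes between subsets in BM was -0.17 with TMM and -0.03 with RLE scaling. At the thresholds of SP against BM, 10109 of all 17650 genes were called between subsets in BM and 8761 in SP. With DESeq2, 1934 of all 17650 genes were called in the interaction in either direction, against 1719 in the main fit. Between tissues in Gr-1lo cells DESeq2 called 804, against 716 in the main fit. With 2 libraries per group, intervals of the classical chains for SP minus BM span more than 2 log2 units, which limits what the data show about Gr-1lo cells.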
